A study of Mus musculus with 16 samples.

Results

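Solitary shared H3K4me1 sites are places where a dendritic cell and a 3T3 fibroblast summit lay at almost the same position and no other summit of either cell type was near. They were chosen by summit position: mutually nearest summits of the 2 lists on the 19 autosomes, at most 250 bp apart, with no further summit of either list within 10000 bp of either member. In all, 1050 of the 13987 autosomal pairs at that distance met the rule (7.51%, 95% interval 7.08 to 7.96), and the other 12937 pairs serve as the comparison. The members make up 1.34% of the 78214 autosomal dendritic cell summits and 1.30% of the 80558 autosomal 3T3 summits. ChIP-seq, which sequences the DNA pulled down with an antibody, was done with anti-H3K4me1 in 4 of the 16 mouse samples of the series. The 2 unstimulated ones of these, with clone CMA302, were analysed here, and the other 14 samples of the series were not. The dendritic cells, which present antigen to T cells, were grown from bone marrow progenitors that carried a retroviral hairpin against the coding sequence of JmjD2d, a histone H3K9 demethylase. The progenitors were kept in SCF, IL-3 and IL-6 at 20 ng/ml each and selected in 2 mM histidinol, and differentiation took 4 days in GM-CSF (4% X63-GMCSF supernatant) with SCF at 5 ng/ml and then 4 days in GM-CSF alone. The 3T3 cells, an established mouse fibroblast line, were kept under standard culture conditions and carried no stated hairpin, so effects of cell type and of the hairpin cannot be told apart. Each cell type is 1 library. No value therefore has a replicate error, no p-value is given, and intervals cover counting error only. Because membership was chosen from the positions in these same lists, all values are descriptions.

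H3K4me1 is monomethylation of lysine 4 on histone H3, placed mainly by the MLL3 and MLL4 methyltransferases. It marks enhancers, both active and poised, and the flanks of active promoters, where the trimethylated form takes over at the centre. Enhancer marks are among the most cell-type-specific features of chromatin, and in many loci they occur in groups along a gene neighbourhood. A lone site marked in cells as unlike as a myeloid and a mesenchymal type is the opposite arrangement: shared, and with no neighbour.

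Solitary shared sites had middling summit scores, below those of the other pairs. The score is taken as the height of the read pile-up at the summit and is not scaled between lists, so it is compared within a list. In dendritic cells the members' scores ran from 16 to 188 with a median of 36 (25th to 75th percentile 27 to 49), against a median of 41 (29 to 60) at the other pairs. In 3T3 they ran from 15 to 222 with a median of 32 (25 to 47), against 38 (27 to 56). The members' medians stood close to the middle of each whole list, with 48.7% of autosomal dendritic cell summits and 46.1% of 3T3 summits below them, whereas the other pairs' medians had 57.4 and 58.5% below. Of the members, 19.5% (17.2 to 22.1) reached the top quartile of the dendritic cell list and 22.1% (19.6 to 24.7) that of the 3T3 list. At the other pairs these shares were 30.5% (29.7 to 31.3) and 31.4% (30.6 to 32.2).

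The difference in score depended on where the isolation limit was set, and scores did not fall steadily with isolation. Among pairs whose nearest further summit lay at most 2000 bp away, the median scores were 35 in dendritic cells and 33 in 3T3. They were highest, at 47 and 43, where it lay 5000 to 7500 bp away. Past 20000 bp and up to 50000 bp they were 33.5 and 29, and beyond 50000 bp, at 49 sites, 30 and 27. With a limit of 5000 bp in place of 10000 bp, the solitary pairs scored 2 higher than the others in each list, while with the 10000 bp limit they scored 5 lower in dendritic cells and 6 lower in 3T3.

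**Figure D1:**
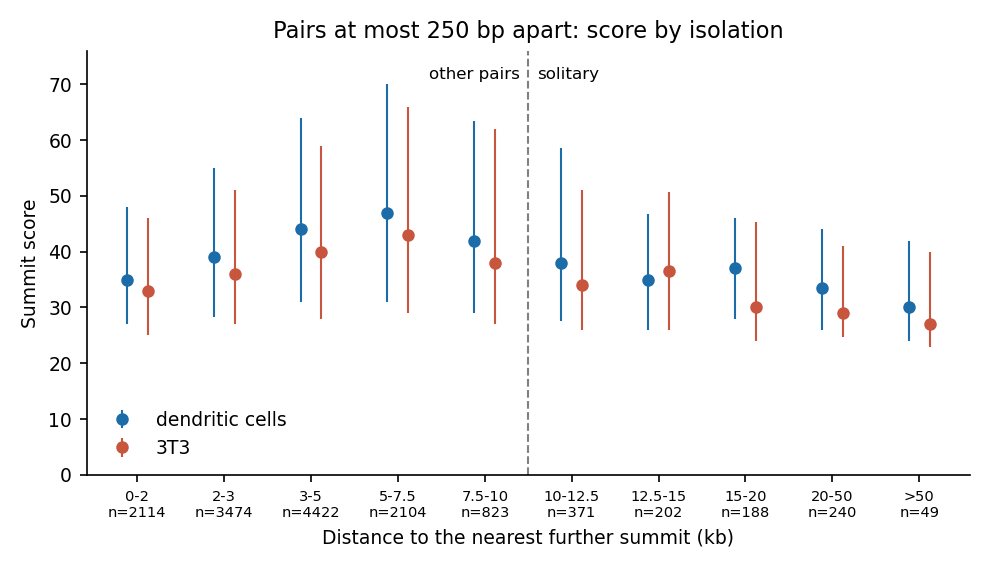
Summit score (vertical axis, deposited units) of autosomal pairs at most 250 bp apart, grouped by the distance to the nearest further summit of either list (horizontal axis, kb). Points are medians and bars the 25th to 75th percentiles for dendritic cells (blue) and 3T3 (red); the dashed line is the 10 kb limit, and both medians peak in the 5 to 7.5 kb group, at 47 and 43.

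The heights of the 2 summits of a solitary site went together loosely. Across the 1050 sites the Spearman rho of the scores was 0.31, and across the other pairs 0.30; sites share their libraries and are not replicates. Of the members in the top quartile of the dendritic cell list, 51.2% (44.2 to 58.2) were also in the top quartile of the 3T3 list, much as at the other pairs (49.6%, 48.0 to 51.2). Of those in the bottom quartile of the dendritic cell list, 12.2% (8.38 to 16.9) were in the top quartile of the 3T3 list, against 20.3% (18.7 to 21.9) at the other pairs. High in both lists were 105 members (10%, 8.25 to 11.98), low in both 73 (6.95%, 5.49 to 8.66), and high in one but low in the other 54 (5.14%, 3.89 to 6.66). At the other pairs these shares were 15.1, 5.23 and 7.10%. The 2 sets differ in height to begin with, which bears on these comparisons: 22.1% of all members and 31.4% of all other pairs were in the top quartile of the 3T3 list.

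Relative to the median ratio of all 13987 pairs, a 3T3 score at least 2-fold higher was found at 83 members (7.90%, 6.35 to 9.71), where 10.7% of all pairs passed that limit. A dendritic cell score at least 2-fold higher was found at 80 members (7.62%, 6.09 to 9.39), where 10.2% of all pairs did. In either direction this made 15.5% (13.4 to 17.9) of the members and 21.3% (20.6 to 22.0) of the other pairs, and the SD of the relative log2 ratio was 0.74 and 0.83. Low scores span a narrower range of ratios, and the members were weighted towards low scores: 36.8% of them, against 24.2% of the other pairs, fell in the lowest of 4 equal groups of the pairs ordered by the geometric mean of both scores. Within that group 6.48% of members and 8.64% of other pairs differed at least 2-fold. In the next groups the shares were 20.4 and 25.04%, then 21.2 and 28.9%, and in the highest group 20.9 and 21.9%. The members' share was the lower one in each of the 4 groups, and the intervals were apart only in the third (16.0 to 27.2 against 27.4 to 30.5). This too depended on the isolation limit, since pairs with a further summit within 5000 bp differed 2-fold in 20.03% of cases and the rest in 22.8%.

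**Figure D2:**
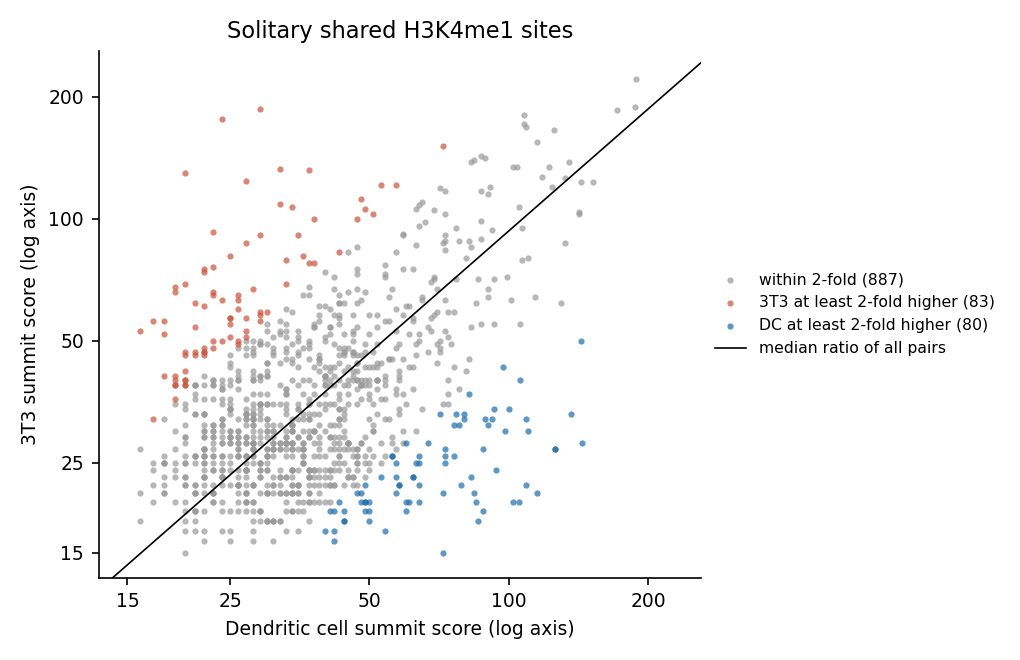
Score of the dendritic cell summit (horizontal) and of the 3T3 summit (vertical), both on log axes, for each of the 1050 solitary shared sites. The line is the median ratio of all pairs at most 250 bp apart; 83 sites (red) lie at least 2-fold above it, 80 (blue) at least 2-fold below, and 887 (grey) between.

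Within the allowed 250 bp the summits of a member were close together, about as close as at the other pairs. The median distance was 80.5 bp, against 79 bp. At most 10 bp separated the summits at 88 members (8.38%, 6.78 to 10.2), and at most 100 bp at 639 (60.9%, 57.8 to 63.8); for the other pairs the shares were 8.44 and 59.6%. Neither list was placed to one side, since the 3T3 summit had the higher coordinate at 535 members (51.0%, 47.9 to 54.0). Fragments averaged about 300 bp, per the labels' protocols, so these distances are shorter than a sequenced fragment.

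Lone couples, made of 1 summit of each list with nothing else within 10000 bp, were also counted without the 250 bp limit. There were 3237 mutually nearest couples up to 10000 bp apart, of which the 1050 members made up 32.4% (30.8 to 34.1). Their number fell with distance, from 359 at up to 50 bp to 100 between 200 and 250 bp, and then to a mean of 66.2 per 50 bp between 250 and 500 bp and 4.93 per 50 bp between 5000 and 10000 bp. At least 2-fold differences in score were found at 15.3% of couples up to 50 bp apart and 22% at 200 to 250 bp. The share was highest, 31.3%, at 1000 to 2000 bp, and stood at 28.7% at 2000 to 5000 bp and 24.3% at 5000 to 10000 bp. Spearman's rho was 0.28 up to 50 bp, 0.41 at 50 to 100 bp, 0.37 at 100 to 150 bp and 0.33 at 150 to 200 bp. It was 0.02 at the 100 couples from 200 to 250 bp. Farther apart it was 0.20 at 250 to 500 bp, 0.13 at 500 to 750 bp and 0.21 at 750 to 1000 bp. It was 0.15 at 1000 to 2000 bp, 0.12 at 2000 to 5000 bp and 0.10 at 5000 to 10000 bp. The couples over 250 bp apart had median scores of 32 in dendritic cells and 31 in 3T3, against 36 and 32 in the members.

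**Figure D3:**
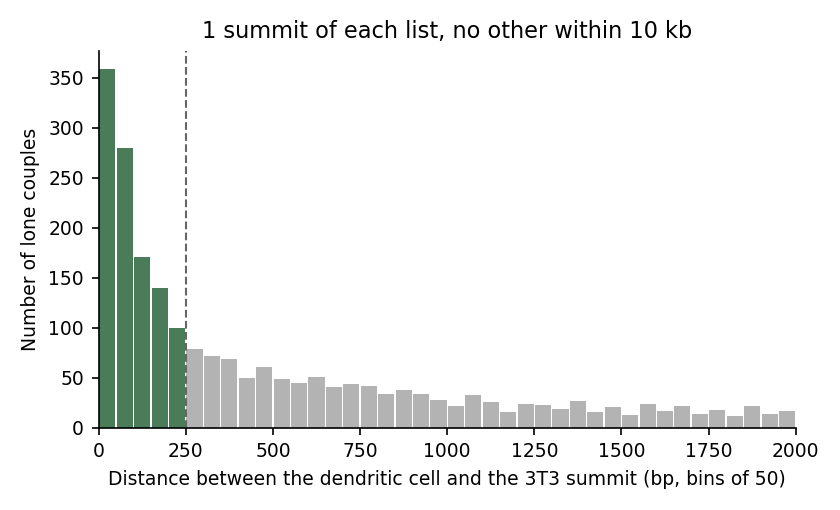
Number of lone couples (vertical axis) by the distance between their 2 summits (horizontal axis, bp, bins of 50). Green bars, left of the dashed line at 250 bp, are the 1050 solitary shared sites, falling from 359 to 100; grey bars are couples farther apart, which keep falling past the limit.

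At the limits of the rule, scores on each side were as follows. The 47 members with summits in the last 25 bp inside the pair limit had median scores of 33 in dendritic cells and 30 in 3T3, and the 38 lone couples in the first 25 bp outside it 41 and 26. The member at exactly 250 bp, on chromosome 3 at 19269345 in dendritic cells, scored 32 and 24, and the nearest couple outside, at 251 bp on chromosome 10 at 121142780, scored 63 and 31. The 81 members whose nearest further summit lay in the first 500 bp past the isolation limit had medians of 39 and 33, and the 111 pairs in the last 500 bp before it 41 and 40. The member nearest to this limit, on chromosome 2 at 72203984, had its next summit 10001 bp away and scored 132 and 87, and the nearest pair outside it, on chromosome 13 at 48608157, had its next at 10000 bp and scored 33 and 44.

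Most solitary sites had a summit in 1 list only. With depth unknown, a summit missing from a list does not show that the mark was absent. Counting members together with single summits that had no summit of either list within 10000 bp, there were 17117 solitary sites, of which 1050 were shared (6.13%, 5.78 to 6.50), 6705 were of dendritic cells alone (39.2%, 38.4 to 39.9) and 9362 of 3T3 alone (54.7%, 53.9 to 55.4). From the side of each list, 13.5% (12.8 to 14.3) of the solitary dendritic cell summits and 10.1% (9.51 to 10.7) of the solitary 3T3 summits were shared. Of the summits that were not solitary, 18.4% in either list belonged to a pair at most 250 bp apart. The 2187 lone couples over 250 bp apart count as not solitary and not shared, both here and by score below. Crowded stretches offer more summits to meet, and the share that chance would give was not computed. Shared solitary sites were the higher ones: the dendritic cell median was 36 at members and 30 (quartiles 23 and 43) at the dendritic-cell-only solitary summits, and the 3T3 median was 32 at members and 29 (23 and 41) at the 3T3-only ones.

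The shared part of the solitary summits was larger at high than at low scores, though in 3T3 it did not grow at each step. In dendritic cells it was 5.63% (3.97 to 7.70) below a score of 20, 14.6% (12.9 to 16.3) from 30 to under 40, and 22.5% (16.7 to 29.3) at 100 or more, which is 41 of 182 summits. In 3T3 it was 6.46% (4.97 to 8.21) below 20, 9.78% (8.57 to 11.1) from 30 to under 40, and 19.2% (14.6 to 24.6) at 100 or more, which is 50 of 260. Below 100 the solitary summits were shared less often than the others of the same score in each list, by intervals that did not overlap except in dendritic cells from 60 to under 100 (15.2 to 21.0 and 20.5 to 22.0). At 100 or more the intervals overlapped in both lists, where 19.7% and 20.8% of the summits that were not solitary were shared.

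**Figure D4:**
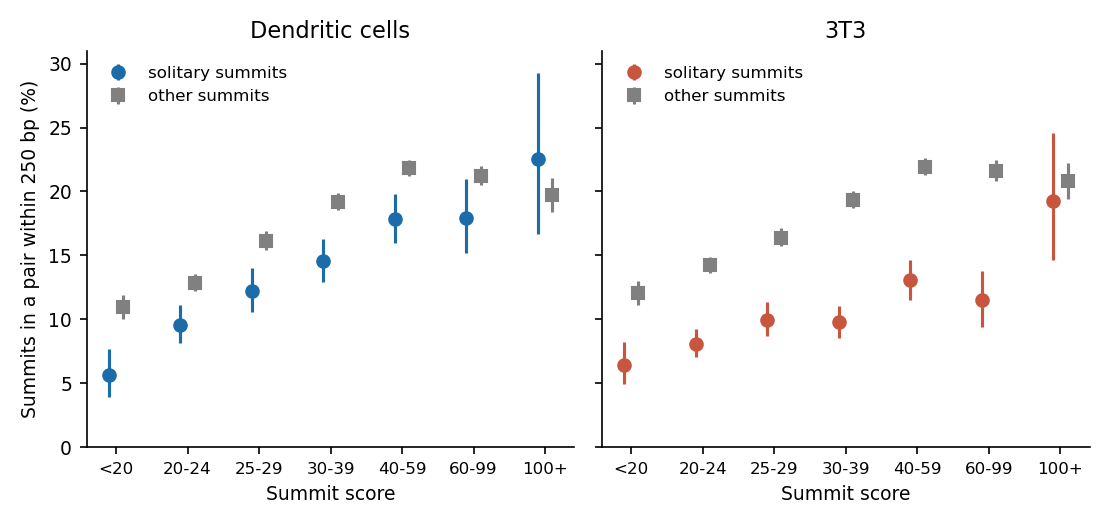
Share of summits that belong to a pair at most 250 bp apart (vertical axis, %) by summit score (horizontal axis), for solitary summits (coloured circles) and all others (grey squares) of dendritic cells (left) and 3T3 (right). Bars are exact 95% intervals; the solitary share is lowest below a score of 20 (5.63% in dendritic cells, 6.46% in 3T3) and highest at 100 or more (22.5 and 19.2%).

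Beyond the clear 10000 bp, members had fewer further summits around them than the other pairs. The nearest further summit was a median of 14212 bp away, it was over 20000 bp away at 289 members (27.5%, 24.8 to 30.3), and over 100000 bp away at 17 (1.62%, 0.946 to 2.58). It belonged to dendritic cells at 560 members (53.3%, 50.3 to 56.4) and to 3T3 at the rest. Within 100000 bp on each side a member had a median of 9 further dendritic cell summits and 8 3T3 summits, against 16 and 15 at the other pairs, a count that the clear stretch itself lowers. Within 500000 bp, a member had a median of 49 further dendritic cell summits (quartiles 30 and 68.75) and 45 3T3 summits (30 and 64). The other pairs had 66 (46 and 83) and 61 (44 and 78). Of the further summits within that distance of members, 19.1% of the dendritic cell ones and 20.1% of the 3T3 ones were in a pair at most 250 bp apart, against 20.6 and 21.7% around the other pairs.

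Summits of the 2 cell types were more even in number around shared solitary sites than around the solitary sites of 1 cell type. This was not particular to members: medians within 500000 bp were 49 and 45 there and 66 and 61 at the other pairs. Members and other pairs alike have a summit of each list by choice. Dendritic-cell-only solitary summits had medians of 44 dendritic cell and 34 3T3 summits within 500000 bp, and 3T3-only ones had 26 and 42. Closer in, within 100000 bp, 5.81% of the members had no further dendritic cell summit and 3.71% no further 3T3 summit. At the other pairs these shares were 0.386 and 0.301%. No dendritic cell summit lay within 100000 bp of 34.2% of the 3T3-only solitary sites, and no 3T3 summit within that distance of 18.3% of the dendritic-cell-only ones. Neighbourhoods of nearby sites overlap, so these counts are not independent.

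The surroundings of unequal members were also counted by list. At the 83 members higher in 3T3, the median numbers of further summits within 500000 bp were 50 for dendritic cells and 57 for 3T3, and at the 80 higher in dendritic cells they were 58 and 48. At members within 2-fold they were 48 and 44. The nearest further summit was of 3T3 at 49 of the 83 members higher in 3T3 (59.04%, 47.7 to 69.7), at 45.9% (42.6 to 49.2) of those within 2-fold, and at 34 of the 80 higher in dendritic cells (42.5%, 31.5 to 54.1). These intervals overlap, and that of the first includes an even split. At the other pairs the nearest further summit was of 3T3 at 47.3% (44.7 to 49.9) of those higher in 3T3 and at 53.3% (50.6 to 56.0) of those higher in dendritic cells, the opposite order. Without chromosome 8, an alternative chosen after seeing the data, the members' first share was 54.3%. Across the members, the relative log2 score ratio and the log2 balance of 3T3 to dendritic cell summits within 500000 bp (1 added to each count) had a Spearman rho of 0.21, or 0.18 without chromosome 8; at the other pairs these were 0.20 and 0.18.

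Solitary shared sites occurred on every autosome, at 3.41 to 5.68 sites per 10 Mb between the first and last summit, a narrower range in proportion than the 36.9 to 98.0 per 10 Mb of all pairs. Chromosome 2 held the most, 88, and chromosome 19 the fewest, 33, though per 10 Mb chromosome 19 was the densest, at 5.68. As a share of pairs they ran from 5.71% (4.45 to 7.21) on chromosome 11 to 12.9% (9.87 to 16.4) on chromosome 12, where 56 of 435 pairs were solitary. That share was lower where pairs were denser, with a rho of -0.86 between it and pairs per 10 Mb across autosomes. The number of pairs enters both values, as the divisor of the share, and the isolation rule leaves out pairs with close neighbours. A negative rho is therefore partly built in. Chromosome 12 had 36.9 pairs and 4.75 members per 10 Mb, and chromosome 11 had 97.3 and 5.56. On chromosome 8 the members' median relative log2 ratio was 0.61 towards 3T3, beside 0.47 at the other pairs there. Of its 52 members, 13 were at least 2-fold higher in 3T3. The other pairs of that chromosome were also rich in such cases: 1408 of 12937 other pairs were 2-fold higher in 3T3 on all autosomes, and 1227 of 12137 without chromosome 8. On the other autosomes the members' medians lay between -0.27 (chromosome 4) and 0.21 (chromosome 19). The sign was that of the other pairs on 13 of 19 autosomes, and the rho between both medians across autosomes was 0.68.

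**Figure D5:**
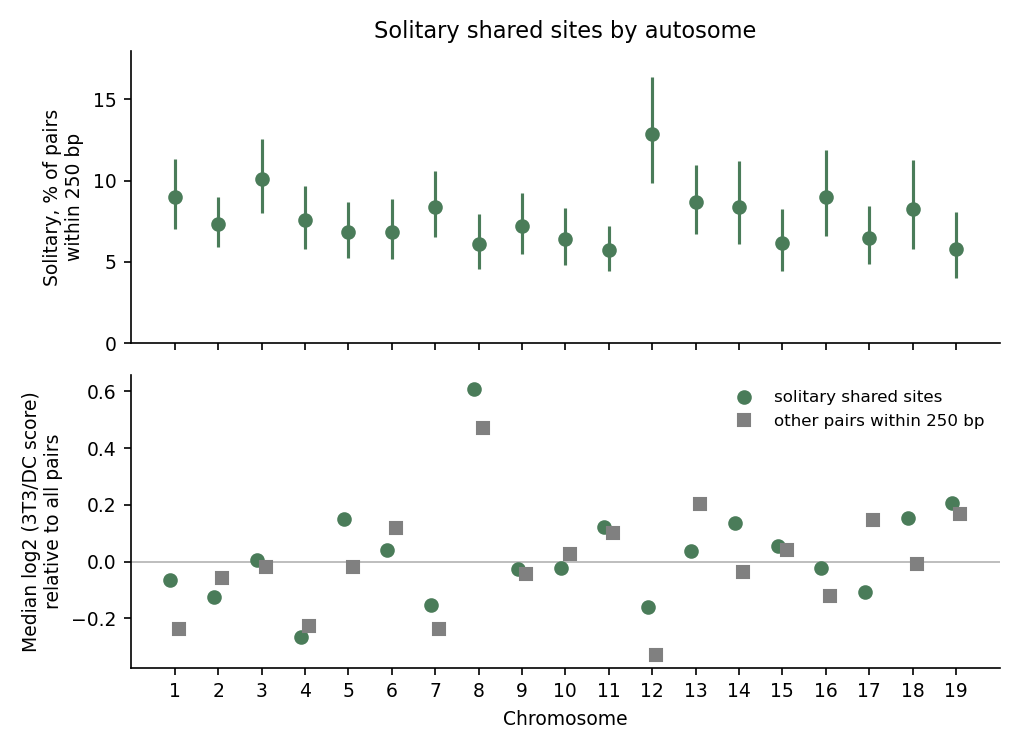
Solitary shared sites by autosome (horizontal axis). Top, their share of all pairs at most 250 bp apart (%), with exact 95% intervals, from 5.71% on chromosome 11 to 12.9% on chromosome 12; bottom, median log2 ratio of the 3T3 to the dendritic cell score relative to all pairs, for solitary sites (green) and other pairs (grey), with chromosome 8 highest at 0.61 and 0.47.

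The sites were spread thinly along the chromosomes. Neighbouring members lay a median of 1280853 bp apart, and the 1050 sites fell in 781 windows of 1 Mb, of which 565 held a single one and 9 held 4, the most found. Among the first 5 of those 9 windows in chromosome order, that on chromosome 3 from 69000001 to 70000000 was sparse, with 16 dendritic cell and 31 3T3 summits in all, and its 4 members were its only pairs. The others were denser. The window on chromosome 3 from 108000001 to 109000000 had 20 pairs, as did that on chromosome 5 from 92000001 to 93000000. On chromosome 8 the windows from 71000001 to 72000000 and from 75000001 to 76000000 had 15 and 16 pairs, and the members' 3T3 medians there were 47.5 and 62.5.

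Members were ranked by the lower of their 2 scores, which picks sites high in both lists, so that the scores of the first 6 are alike by this choice. The first, on chromosome 11 at 81821578 in dendritic cells, scored 188, and the 3T3 summit 47 bp away scored 222, each above 99.9% of its list. On chromosome 12 at 75905277 both summits had the same position, with scores of 187 and 189. The member on chromosome 2 at 165682132 scored 171 and 186 with summits 116 bp apart, in a neighbourhood of 77 dendritic cell and 64 3T3 summits within 500000 bp. On chromosome 12 at 3110046 the summits were 1 bp apart and scored 135 and 138. That on chromosome 3 at 97861783 scored 132 and 126 over 178 bp, and that on chromosome 12 at 68160465 scored 125 and 166 at the same position. So 3 of these 6 lay on chromosome 12, and it was those 3 whose summits differed by at most 1 bp. Of the 20 members with both scores at 100 or more, these 3 were the only ones within 10 bp, and at the other pairs of that height 35 of 179 were. Input DNA, which would show whether reads pile up at such positions without the antibody, was not analysed here, and the part of such pile-up was not tested.

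The most isolated member was one of these: the site on chromosome 12 at 68160465 had no further summit within 1864924 bp. Next came the site on chromosome 7 at 11079421, with scores of 37 in dendritic cells and 18 in 3T3 and no further summit within 1516414 bp. Its neighbour on the same chromosome, at 12596060, scored 26 and 29 and came next, with 410800 bp clear. Apart from the chromosome 12 site, these remote sites were thus modest or low in height. Their summits stood above 50.6% and 24.4% of the dendritic cell list and above 2.40% and 38.1% of the 3T3 list. Identical positions in both lists were found at 4 members, the chromosome 12 sites at 75905277 and 68160465 and, with lower scores, 1 on chromosome 2 at 120835188 (33 and 29) and 1 on chromosome 18 (68 and 57).

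The most unequal members had a strong summit in one cell type over a weak one in the other. On chromosome 8 at 126825961 the scores were 24 in dendritic cells and 176 in 3T3, 18 bp apart, a relative log2 ratio of 2.97. On chromosome 13 at 41844569 they were 20 and 130 (2.80), and on chromosome 3 at 152174979 they were 29 and 187 (2.79). In the other direction, the member on chromosome 1 at 90483536 scored 115 in dendritic cells and 21 in 3T3 (-2.35), that on chromosome 10 at 94291960 scored 105 and 20 (-2.29), and that on chromosome 1 at 169271600 scored 144 and 28 (-2.26). For each of these 6, the nearest further summit belonged to the stronger cell type, 10651 to 17870 bp away. Over all unequal members this held at only 49 of the 83 higher in 3T3 (59.04%, 47.7 to 69.7). Of the 80 higher in dendritic cells it held at 46 (57.5%, 45.9 to 68.5), and both intervals include an even split. The weak summits of the 3 members higher in 3T3 stood above 18.2, 6.14 and 32.9% of the dendritic cell list, in the order given, and those of the 3 higher in dendritic cells above 10.6, 7.28 and 35.1% of the 3T3 list.

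At the other extreme were members low in both cell types. The lowest, on chromosome 14 at 59984018, scored 16 and 18, where the minimum of each list was 13. It was followed by 7 members whose higher score was 20, with lower scores from 15 to 20. The first of these in chromosome order, on chromosome 2 at 124962161 and at 179736688, scored 20 and 20, and 19 and 20. The summits of these 3 sites lay 129, 150 and 142 bp apart, farther than the members' median. No second library was analysed here to show whether such weak sites recur. Genes near the sites and their sequences were not looked up, since the gene table and promoter sequences used here are for another build than mm9.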

How the data were processed

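Samples were grouped by title; the cell type field of the 3T3 library names dendritic cells, but its title, description and growth protocol name 3T3, as does its file header. Per the labels' protocols, formaldehyde-fixed chromatin was sonicated, amplified for 18 PCR cycles and read as single reads of 36 bp. Per the submitters' processing notes, Bowtie aligned the reads to mm9 and MACS 1.4 called the peaks. The settings, per the file headers, were a calling threshold of 1e-04, a shift of 150 bp, and neither a fragment model nor local background. For each summit the authors deposited 1 position and 1 unnamed score, taken here as a signal (pile-up height). Use of input and read totals: not given in the sources used here. Depth is therefore unknown.

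Pairs were mutually nearest summits, ties going left. Score ratios (3T3 over dendritic cells) were divided by the median ratio of all 13987 autosomal pairs at most 250 bp apart, 0.933, and an exact 2-fold ratio counted as 2-fold. Shares carry exact Clopper-Pearson 95% intervals. Quartiles are those of all autosomal summits of a list. Positions are 1-based mm9, those of the dendritic cell summit where 1 is given. The members and all analyses were chosen with earlier results of these data known. Named sites are the 6 members with the highest lower score, the 3 most isolated, the 3 most unequal each way, 3 with the lowest higher score, those at the limits, and 5 of the windows of 1 Mb with most members, ties in both going by chromosome and position; the same-position sites were named after their values were seen. Alternatives were other pair and isolation limits, top-scoring summits, merged summits, and omission of chromosome 8 or the highest scores. The pairing was tested on simulated data. Software: matplotlib 3.10.9, pandas 2.3.3, scipy 1.17.1 and numpy 2.4.6 under Python 3.11.15.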

Additional observations from a re-analysis of the deposited data

How the results depend on the processing

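Of 74 recomputed values, 47 stayed within the main value's counting interval or, for numbers of sites, within 1.5 times. Merging summits of a list within 1000 bp, omitting chromosome 8 and omitting the top 0.1% of scores moved none of them. With an isolation limit of 5000 bp there were 3977 sites, 28.4% of pairs, with median scores of 42 and 39 (dendritic cells, 3T3); the differences from the other pairs turned from -5 and -6 to 2 and 2, 22.8% of the sites differed 2-fold, and 8.87% of solitary sites were shared. With 20000 bp there were 289 sites, 2.07% of pairs, with medians of 33 and 29, differences of -8 and -9, a median distance of 73 bp, and 4.66% of solitary sites shared. With the 39898 top-scoring summits of each list, 20.7% of pairs were solitary, the medians were 55 and 51, the dendritic cell difference was -3, 7.81% differed 2-fold and the median distance was 72.5 bp, the lists being thinner and cut by score. Pair limits of 100 and 500 bp gave median distances of 44 and 113 bp and 3.82 and 7.91% of solitary sites shared, and 100 bp left 639 sites. The cause of the turn at 5000 bp was not tested. No paired analysis was possible because each cell type is 1 library. With depth unknown, a missing neighbour means only that none was listed.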

Other observations

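The X chromosome, outside the rule, held 27 sites that meet its other terms, of 188 pairs at most 250 bp apart (14.4%, 9.68 to 20.2). Their scores were low, with a median of 26 in each list and a range of 18 to 144 (dendritic cells) or 18 to 176 (3T3). Of the 27, 2 differed at least 2-fold relative to the median of the autosomal pairs. Among autosomal members in the lowest of the 4 groups by mean score, 6.48% did, so the X count is no trait of that chromosome by itself. Single solitary summits on the X chromosome numbered 331 in dendritic cells and 262 in 3T3, so 4.35% of its solitary sites were shared. The dendritic-cell-only ones were the more frequent kind there, while in the sum over the autosomes the 3T3-only ones were (9362 against 6705). The X chromosome was not alone in this. Dendritic-cell-only summits also outnumbered 3T3-only ones on chromosome 12 (370 against 273), chromosome 7 (428 against 411) and, barely, chromosome 1 (630 against 628). On every other autosome the 3T3-only ones were more frequent.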
